A study of Homo sapiens with 16 samples.

Results

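Chromatin accessibility was compared between Rh30 cells given 500 nM dTAG47 for 4 h and the same cells given DMSO. The comparison rests on 4 ATAC-seq libraries of an experiment numbered 6086 in the labels, 2 per group, out of 16 libraries in the series. It was made by taking the 4 h and DMSO columns of the deposited raw count table with all 56949 regions, of which 56945 passed a low-count filter. Rh30 is an established line of alveolar rhabdomyosarcoma, a tumour of children and adolescents with features of skeletal muscle, and it carries the PAX3-FOXO1 fusion. All cells of both groups carried FKBP-tagged PAX3-FOXO1, and dTAG47 is a small molecule that brings FKBP-tagged proteins to a ubiquitin ligase for degradation. The same experiment held 2 libraries each at 2 h and 24 h. A separate experiment, 6211, held 2 libraries each of DMSO and of 0.5, 1 and 2 h of dTAG47. The labels do not say how long DMSO was given, whether the tagged line was 1 clone or whether replicate libraries came from separate cultures. P-values therefore reflect only how far replicate libraries lay apart, and that spread may be technical. Untagged cells were not analysed here, so an effect of losing the fusion and any other effect of dTAG47 cannot be told apart.

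PAX3-FOXO1 joins the DNA-binding domains of PAX3, a regulator of muscle progenitors, to the activation domain of FOXO1. The fusion protein binds mostly away from promoters, where it is known to open chromatin and to keep clusters of enhancers active together with the muscle regulators MYOD1 and MYOG and the oncoprotein MYCN. Known targets include the receptors FGFR4 and ALK. ATAC-seq uses a transposase that cuts and tags open DNA, so reads in a region rise with how often that stretch is free of nucleosomes. It measures accessibility and not transcription.

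Libraries of the 2 groups held between 18038062 reads in regions (DMSO, library A) and 25803905 (DMSO, library B). Replicates had a Spearman correlation across regions of 0.987 in DMSO and 0.99 at 4 h, and neither pair agreed within sampling noise (chi-square per degree of freedom 1.96 and 1.4). Levels are given as CPM, the usual depth-scaled read count, after TMM scaling and in the order library A, library B. Changes are log2 ratios of 4 h to DMSO with their standard error. A region was called when edgeR's quasi-likelihood test gave a Benjamini-Hochberg adjusted p under 0.05. The label of the cells could be checked only loosely, since accessibility near a gene is not its expression. The region over the start of MYOG held 80.7 and 84.0 CPM in DMSO, those over the starts of CHRND and CHRNA1, subunits of the muscle acetylcholine receptor, held a mean of 71.4 and 61.1 CPM, while MYF5 and MYF6 shared 1 region within 50 kb, at 7.68 CPM. Regions near markers of other cell types were open too: the one with the lowest p held 77 CPM near the blood gene SPI1, 68 CPM near the fibroblast gene COL1A1, and 15.5 and 16.5 CPM near the epithelial genes EPCAM and CDH1. The same choice gave 6.36 and 6.06 CPM near the blood genes PTPRC and CD3E and 27.4 CPM near the liver gene ALB. Near the endothelial gene PECAM1 and the neural crest gene SOX10 it gave 5.16 and 3.13 CPM. KRT5, an epithelial keratin gene, had no region within 50 kb. Regions chosen by p need not lie over a start, so their levels are not comparable with those of the start regions. Chosen by p in the same way, regions near the 11 muscle markers ran from 4.32 CPM (ACTC1) to 70 CPM (DES), overlapping those of the other cell types.

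After 4 h, accessibility was lower at 3099 regions (5.44% of those tested) and higher at 995 (1.75%), together 7.19%. The losses were the deeper changes. A loss of 1.5-fold or more was seen in 1341 of the lower regions (43.3%) and one of 2-fold or more in 396, whereas 82 of the higher ones (8.24%) had gained 1.5-fold and 2 had gained 2-fold. The median log2 change was -0.53 in lower regions and 0.36 in higher regions, beside 0.01 over all regions tested. In all 3099 lower regions both 4 h libraries lay below both DMSO libraries. Such separation was common without a call: it was found downward in 22.2% of all regions and upward in 22.4%. Without the 4 h library B the count of lower regions was 1936, and the count of higher regions was 324 without the 4 h library A and 395 without the 4 h library B. DESeq2 on the same 8 libraries called 1917 lower and 186 higher, the same counts as the authors' deposited table of this comparison.

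**Figure D1:**
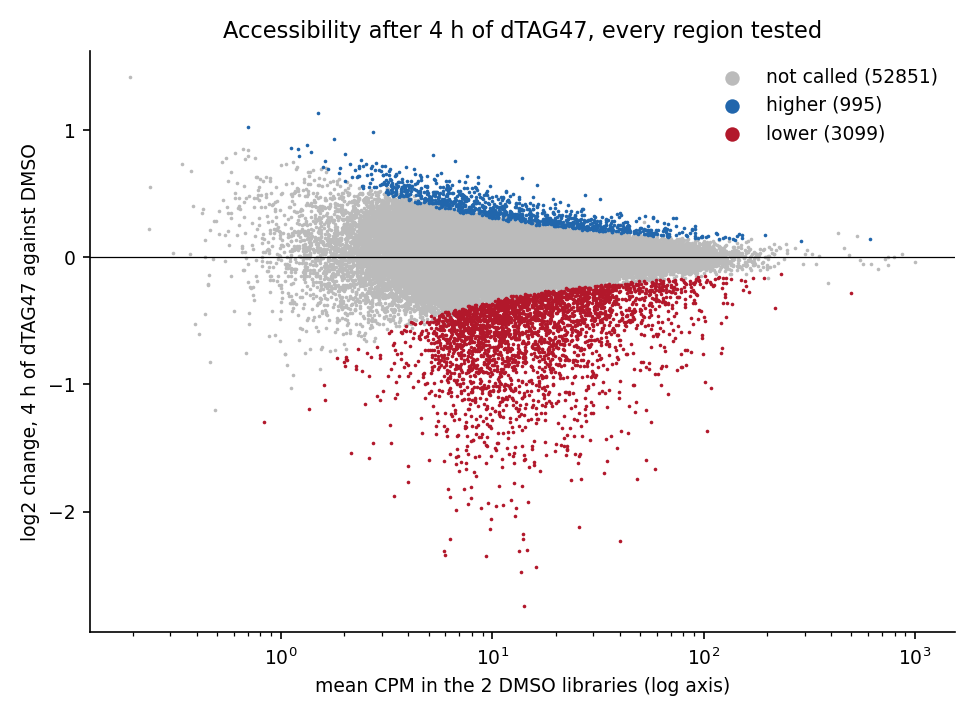
Log2 change after 4 h of dTAG47 (vertical axis) against the mean CPM of the 2 DMSO libraries (horizontal axis, log scale) for each of the 56945 regions tested, in red where lower (3099), in blue where higher (995) and in grey where not called. Red points reach a log2 change of -2.74, while the highest blue point is at 1.14.

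The lower regions together took 6.77% and 6.44% of the reads in regions in the DMSO libraries and 4.81% and 4.67% after 4 h. At 2 h they took 5.06% and 5.19%, and at 24 h 4.42% and 4.45%. The 995 higher regions took 2.03% and 2.04% of the reads in DMSO and 2.5% and 2.48% at 4 h. They took 2.34% in both libraries at 2 h, and 2.61% and 2.65% at 24 h. These regions were chosen on the 4 h and DMSO libraries, so the shares describe the sets and test nothing. In both sets the 2 h libraries lay between DMSO and 4 h, and the 24 h libraries lay beyond 4 h.

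Called regions were wider than the rest, with a median of 382 bp for lower and 431 bp for higher regions against 314 bp for those not called. The higher regions of at least 1.5-fold went the other way, with medians of 195.5 bp and 3.12 CPM in DMSO. Taken as a whole, called regions were also better covered: the median DMSO level was 14.2 CPM in lower, 11.7 in higher and 10.2 in uncalled regions. Regions up to 200 bp wide had a median mean count of 117 and were called lower in 2.94% and higher in 0.837% of cases, while among those over 200 and up to 500 bp, with a median of 238 counts, the shares were 6.15% and 1.78%. Above 1000 bp, with a median of 1490 counts, the share called lower was smaller again, 4.82%, and the share called higher reached 2.6%. By DMSO level the lower calls ran from 1.16% among the least accessible 11392 regions to 7.58% in the next to highest of the 5 equal classes, and the higher calls from 1.45% to 2.1%. The part of read depth in these shares was not tested.

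Regions over gene starts were looked at separately. Of the 92 genes in the lists described further on, 69 were matched to a table of RefSeq promoters that gave their strand, and 36 of these had an open region over their start. In 1 of the 36 the region was lower and in 0 it was higher, with a range of log2 changes from -0.49 to 0.33 and a median of 0.00. With 5.44% of all regions lower and 1.75% higher, so few starts do not show a difference from regions in general. The other 911 regions within 50 kb of the list genes included 79 lower (8.67%) and 17 higher (1.87%). Start regions were more accessible and better counted than those others, with medians of 40.2 against 12.4 CPM and 1020 against 303 counts. The one start that fell was that of GREM1, a secreted antagonist of bone morphogenetic proteins, at chr15:33009729-33010286 on hg19. It went from 14.3 and 15.6 CPM in DMSO to 9.67 and 11.7 CPM at 4 h (log2 change -0.49, SE 0.1, adjusted p = 0.0008), and the call was lost without the 4 h library A (adjusted p = 0.075). Among the regions with the largest gains in CPM, chr6:44186202-44187608 lay over the start of SLC29A1, a nucleoside transporter of the plasma membrane. It rose from 70.6 and 76.9 CPM to 90.1 and 93.5 CPM (log2 change 0.31, SE 0.05, adjusted p = 3.2e-05). The 250 bases before each of these 2 starts are shown because in them a called region lay over a start, among the 36 starts and the regions named here. Other called regions were not compared with gene starts. They come from RefSeq on GRCh38.p14, at chr15:32717754-32718003 and chr6:44219365-44219614, both on the plus strand, and capitals mark matches, on either strand, to the 3 motifs spelled out after them.
GREM1: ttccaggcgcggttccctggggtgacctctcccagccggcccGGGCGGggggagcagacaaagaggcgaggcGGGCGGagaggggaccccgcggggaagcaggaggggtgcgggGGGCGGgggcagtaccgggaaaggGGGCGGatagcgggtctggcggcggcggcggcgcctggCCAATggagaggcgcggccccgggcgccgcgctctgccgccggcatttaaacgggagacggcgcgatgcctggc
SLC29A1: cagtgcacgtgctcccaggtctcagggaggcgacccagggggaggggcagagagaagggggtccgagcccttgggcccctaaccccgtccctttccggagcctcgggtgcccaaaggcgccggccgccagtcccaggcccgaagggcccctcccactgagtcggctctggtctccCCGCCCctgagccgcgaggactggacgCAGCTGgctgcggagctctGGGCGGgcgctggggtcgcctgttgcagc

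The GREM1 window held 4 copies of GGGCGG, the letters bound by SP family factors, and 1 CCAAT. That of SLC29A1 held 2 copies of GGGCGG and 1 CAGCTG, an E-box form bound by MYOD1 and MYOG. Among the 27305 promoter windows of that length, 42.3% held GGGCGG, 33% CCAAT and 13.8% CAGCTG. Neither window held TGANTCA, an AP-1 site (in 6.6% of promoters), or GTCACG, letters found in paired-domain sites (8.1%). Both windows were rich in G and C, 76.8% and 73.2% against a median of 58% over all promoters. A match is a description of the letters and does not show binding.

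The deepest losses lay within or between genes, and their distance from gene starts was not measured. The lowest log2 change was in KCNIP1, which encodes a calcium-binding partner of potassium channels. At chr5:170008229-170008611 the level was 15.3 and 12.9 CPM in DMSO and 2.0 and 2.16 CPM at 4 h. The level in DMSO was 6.7 times that at 4 h by the edgeR estimate (log2 change -2.74, SE 0.14, adjusted p = 5.3e-16). Of the 10 losses with the lowest log2 change, 7 were matched to a single region of the separate experiment, and all 10 kept their call under each of the 13 alternative settings.

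Between CHD6, a chromatin remodeller, and PTPRT, a receptor tyrosine phosphatase, 2 of the 10 losses lay on the same stretch of chromosome 20. The region chr20:40621138-40621554 went from 13.5 and 13.8 CPM to 2.65 and 2.28 CPM (log2 change -2.48, SE 0.13, adjusted p = 5.5e-16). The region chr20:40555841-40556253 went from 14 and 15.1 CPM to 3.08 and 2.84 CPM (log2 change -2.30, SE 0.13, adjusted p = 4.4e-15). By these log2 changes the 4 h level was 0.18 and 0.203 of that in DMSO. Regions named by size had to have groups that did not overlap, so their separation is no added evidence.

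The most accessible of the 10 in DMSO was chr6:44628171-44628686, between CDC5L, a splicing factor, and SUPT3H, a subunit of the SAGA co-activator. It held 42.5 and 38.4 CPM in DMSO and 7.81 and 9.27 CPM at 4 h (log2 change -2.23, SE 0.09, adjusted p = 2.1e-18). By 24 h it held 4.34 and 3.61 CPM, below the 4 h libraries. In IRAK3, which encodes a brake on Toll-like receptor signalling, chr12:66634884-66635285 went from 14.6 and 12.2 to 2.99 and 2.36 CPM (log2 change -2.31, SE 0.14, adjusted p = 2.2e-14). Another loss on that arm of chromosome 12, chr12:66508913-66509375 beside LLPH, a nucleolar protein gene, went from 13.8 and 14.1 to 2.95 and 3.08 CPM (log2 change -2.21, SE 0.13, adjusted p = 4.4e-15). Another, chr12:66997879-66998236 in GRIP1, which encodes a glutamate receptor scaffold, went from 11.6 and 9.93 to 3.25 and 2.88 CPM (log2 change -1.80, SE 0.14, adjusted p = 2.7e-12). These 3 regions, named for their depth or their low p, lie on less than 1 Mb of the chromosome.

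The other 5 losses lay in or between genes on chromosomes 1, 4, 11, 15 and 16. In ARID4B, a gene for a subunit of the SIN3 co-repressor, chr1:235344341-235344631 went from 9.52 and 9.23 CPM to 2.21 and 1.48 CPM (log2 change -2.35). At chr11:64297123-64297526, between RPS6KA4, a kinase of histone H3, and SLC22A11, an organic anion transporter, the level went from 16.9 and 15.4 to 3.25 and 2.68 CPM (log2 change -2.44). The region chr16:20731085-20731219, between ACSM1 and THUMPD1, went from 6.89 and 5.05 CPM to 1.6 and 0.719 CPM (log2 change -2.34), with the 4 h libraries further apart in ratio than in the other 9. In MYZAP, a gene for a protein of cardiac cell junctions, chr15:57944755-57944919 fell by 2.31 on the log2 scale, from 6.11 and 5.75 to 1.08 and 1.28 CPM. The last, chr4:80076611-80076799 between PAQR3 and GK2, fell by 2.21, from 7.28 and 5.4 to 1.56 and 1.12 CPM. Adjusted p-values of these 5 ran from 4.9e-16 to 7e-10.

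**Figure D2:**
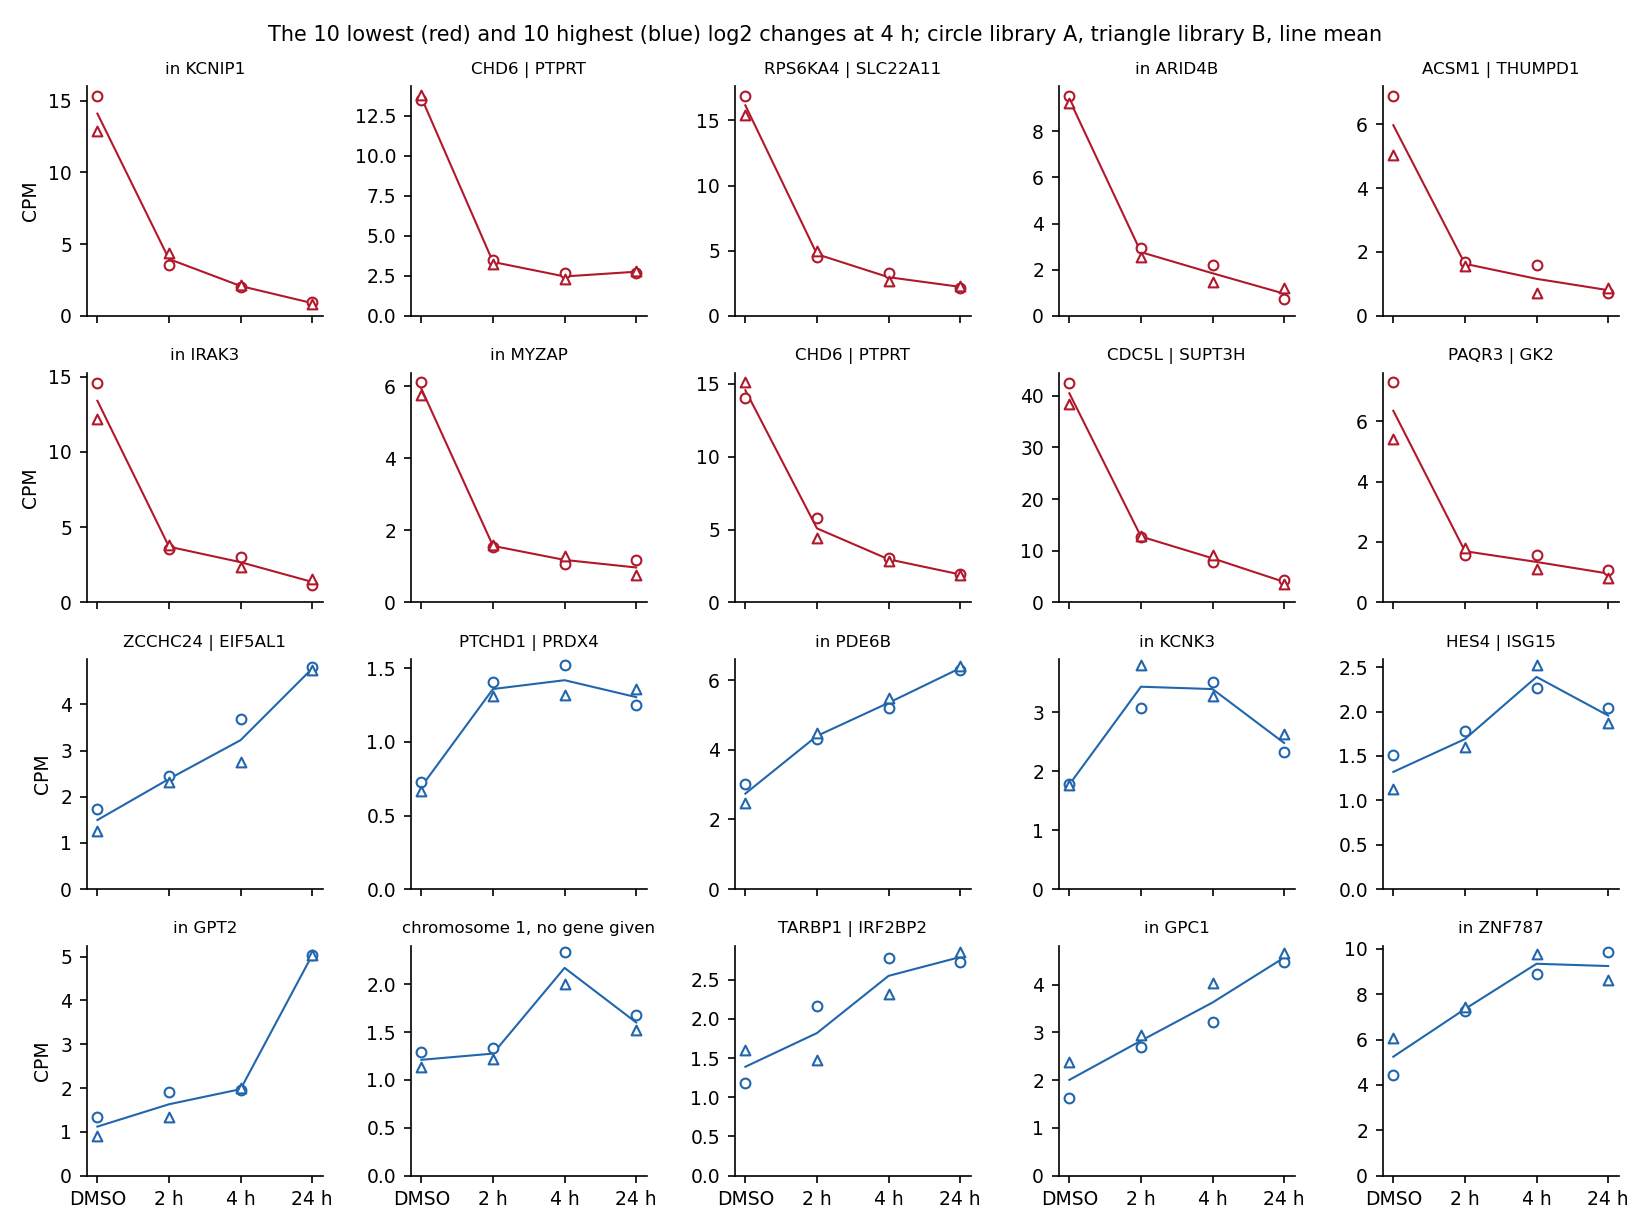
CPM (vertical axes, from 0, a different scale in each panel) of the 10 regions with the lowest (red) and the 10 with the highest (blue) log2 change at 4 h, in each library of DMSO, 2 h, 4 h and 24 h; circles are library A, triangles library B and lines the means. The horizontal axis lists groups and is not to scale in time. In each red panel both 4 h libraries lie below both DMSO libraries, which the choice of regions required. In 9 of the 10 blue panels every library stays under 7 CPM.

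The largest losses in CPM fell on broad regions with many reads, which a ranking by CPM favours. In SPG7, which encodes a mitochondrial protease, chr16:89608968-89609878 went from 108 and 99.3 CPM to 41.6 and 38.4 CPM (log2 change -1.37, SE 0.06, adjusted p = 2.7e-18). In FGF8, a growth factor gene of embryonic patterning, chr10:103529965-103531230 held 108 and 109 CPM in DMSO and 53.3 and 53.2 CPM at 4 h (log2 change -1.03, SE 0.05, adjusted p = 9.2e-17). Between KCNS3, a potassium channel subunit gene, and RDH14, chr2:18334900-18336507 went from 107 and 97.1 CPM to 52.9 and 50 CPM (log2 change -0.98, SE 0.05, adjusted p = 2e-15). By these log2 changes the DMSO level was 2.59, 2.04 and 1.98 times that at 4 h. In each the 2 replicates of a group were much closer to each other than to the other group, which the choice of regions favours.

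The region chr20:47083789-47085185 lay between SULF2, which encodes an enzyme that trims heparan sulfate, and PREX1, an activator of RAC. It went from 123 and 117 to 70.7 and 71.8 CPM (log2 change -0.75, SE 0.05, adjusted p = 7.9e-14), and held 94.8 and 96.7 CPM at 24 h. Between OTOG, an inner ear gene, and MYOD1, chr11:17671003-17673780 went from 228 and 209 to 164 and 166 CPM (log2 change -0.40, SE 0.04, adjusted p = 1.3e-08). In R3HDM2, chr12:57665667-57667687 went from 511 and 482 to 418 and 398 CPM (log2 change -0.28, SE 0.04, adjusted p = 1.4e-06). Ratios in these last 2 were modest, 1.32-fold and 1.22-fold.

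The gains were small, and the 10 highest by fold lay at faint regions, although the 995 higher regions had a median DMSO level of 11.7 CPM. The highest log2 change was at chr10:81243917-81244072, between ZCCHC24 and EIF5AL1 (log2 change 1.14, SE 0.21, adjusted p = 0.00026). It went from 1.49 ± 0.343 CPM in DMSO to 3.22 ± 0.657 CPM (SD, n = 2 libraries each). Both 4 h libraries lay above both DMSO libraries, as the choice of regions required. In PDE6B, which encodes a phosphodiesterase of rod photoreceptors, chr4:624304-624487 went from 3.02 and 2.46 to 5.21 and 5.48 CPM (log2 change 0.98, SE 0.16, adjusted p = 2e-05). In KCNK3, a gene for an acid-sensitive potassium channel, chr2:26947472-26947586 went from 1.79 and 1.76 to 3.51 and 3.28 CPM (log2 change 0.93, SE 0.19, adjusted p = 0.001). The best covered of the 10 was chr19:56622517-56622819 in the zinc finger gene ZNF787, where the level was 4.43 and 6.06 CPM in DMSO and 8.89 and 9.79 CPM at 4 h (log2 change 0.80, SE 0.13, adjusted p = 3.1e-05). These 4 kept their call under all alternatives.

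The other 6 gains by fold were called in the edgeR fit but not by DESeq2. At chrX:23522098-23522192, between PTCHD1 and PRDX4, a peroxidase of the endoplasmic reticulum, the level went from 0.728 and 0.665 to 1.52 and 1.32 CPM (log2 change 1.03, adjusted p = 0.023 in edgeR and 0.31 in DESeq2). Between HES4 and ISG15, an interferon-induced gene, chr1:936508-936659 went from 1.51 and 1.13 to 2.26 and 2.52 CPM (log2 change 0.89, adjusted p = 0.0094 and 0.22). In GPT2, which encodes a mitochondrial alanine transaminase, chr16:46952967-46953101 went from 1.34 and 0.9 to 1.95 and 2.0 CPM (log2 change 0.86, adjusted p = 0.029 and 0.24). At 24 h that region stood at 5.03 and 5.04 CPM, above the 4 h libraries. In GPC1, a cell surface proteoglycan gene, chr2:241398109-241398253 went from 1.62 and 2.39 to 3.21 and 4.04 CPM (log2 change 0.81, adjusted p = 0.0043 and 0.072). The region chr1:234718481-234718635, between TARBP1 and IRF2BP2, a transcriptional co-repressor gene, had a log2 change of 0.83 (adjusted p = 0.018 and 0.21). The last, on chromosome 1, was not tied to a gene and had a log2 change of 0.85 (adjusted p = 0.018 and 0.32). DMSO levels of the 10 gains ran from 0.697 to 5.24 CPM, so few reads stood behind each.

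The largest gains in CPM were shallow rises of wide regions with many reads, which the ranking favours as well. In AGAP2, which encodes a GTPase-activating protein, chr12:58127694-58132159 went from 606 and 613 to 662 and 683 CPM (log2 change 0.14, SE 0.03, adjusted p = 0.0069). Between CTDSP2, a phosphatase gene, and ATP23, chr12:58281596-58285030 went from 297 and 282 to 315 and 319 CPM (log2 change 0.13, adjusted p = 0.035). That call was lost under 6 of the 13 alternatives, DESeq2 among them (adjusted p = 0.15). The AGAP2, CTDSP2 and R3HDM2 regions all lie between 57 and 59 Mb on chromosome 12, where 11 of 213 regions were lower and 7 higher. DNA copy number was not measured, so the high CPM of these regions cannot be read as openness alone. Next to VWA1, a matrix protein gene, chr1:1366864-1369407 had a log2 change of 0.17, from 193 and 197 to 215 and 224 CPM. Between TRMT61A, a tRNA methyltransferase gene, and BAG5, chr14:104007995-104009846 had one of 0.18, from 146 and 159 to 169 and 176 CPM. In SDK2, an adhesion molecule gene, chr17:71338080-71340636 also had 0.18, from 147 in both libraries to 170 and 163 CPM. All of these rises were under 1.15-fold, and only the SLC29A1 region kept its call under every alternative: leaving out a 4 h library ended that of the AGAP2 region (adjusted p = 0.14), the VWA1 region (0.15) and the TRMT61A region (0.16) without library B and that of the SDK2 region (0.10) without library A.

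Genes linked to PAX3-FOXO1 were examined through the regions within 50 kb of each gene. This list of 29 genes was drawn up with results of these data known, so its count is a description and no independent evidence of direction. Of its 362 regions, 58 were lower (16%, exact 95% interval 12.4% to 20.2%) and 4 higher (1.1%), beside 5.44% and 1.75% of all regions tested. The median log2 change was -0.08, against 0.01 over all regions, so most regions around these genes moved little while some moved a great deal. At least 1 lower region was found at 23 of the 29 genes. The region with the lowest p kept its call under all 13 alternatives at 17 of the 22 genes where that region was lower.

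Among secreted factors, FGF8 had 5 of its 11 regions lower, and NELL1, which encodes a secreted protein of bone formation, held one of the deepest losses of the list. The NELL1 region, chr11:20791814-20792427, went from 25.9 and 25.5 to 6.25 and 5.56 CPM (log2 change -2.12, SE 0.10, adjusted p = 3.2e-17). Around FGF8 the loss was uneven. Next to the strongly reduced region already described, chr10:103532174-103532896 within the gene went from 20.7 and 24.1 to 18.7 and 17.2 CPM (log2 change -0.33, adjusted p = 0.0087). Beyond the gene, chr10:103577482-103579108 held 108 and 101 CPM in DMSO and 100 and 99.0 CPM at 4 h (log2 change -0.06, adjusted p = 0.57). The 2 most accessible regions of the locus were thus alike in DMSO and differed after 4 h.

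Receptor genes showed different depths of loss. ALK, a receptor tyrosine kinase, had 5 of 33 regions lower, all inside the gene, with the lowest p at chr2:29880499-29881198, which went from 34.5 and 32.6 to 16.7 and 17.2 CPM (log2 change -0.98, SE 0.07, adjusted p = 4e-12). At FGFR4, a fibroblast growth factor receptor, 1 of 8 regions was lower, chr5:176532361-176533383, from 116 and 111 to 99.6 and 101 CPM (log2 change -0.17, adjusted p = 0.013). This call was lost under 4 alternatives, with a DESeq2 adjusted p of 0.078. Calls at MET, the hepatocyte growth factor receptor (log2 change -0.26, adjusted p = 0.0078), and IGF1R, the receptor of insulin-like growth factors (log2 change -0.26, adjusted p = 0.023), were 1 region each. They too were lost with DESeq2 (0.084 and 0.19).

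Genes of transcription and chromatin factors differed in their number of losses. PRDM12, a regulator of pain-sensing neurons, had 4 of 9 regions lower, led by chr9:133547657-133548966, from 82.1 and 74.3 to 41.9 and 43.7 CPM (log2 change -0.86, SE 0.06, adjusted p = 3.4e-13). OLIG2, a regulator of the oligodendrocyte lineage, had 3 of 10, among them chr21:34430710-34431566, from 35.9 and 35.2 to 21.3 and 22.4 CPM (log2 change -0.70, adjusted p = 2.5e-09). DNMT3A, a DNA methyltransferase gene, had 5 of 29, led by chr2:25526516-25527124, from 34.2 and 30.8 to 18.7 and 18.6 CPM (log2 change -0.80, adjusted p = 1.7e-09). At TFAP2B, 1 of 2 regions was lower (log2 change -0.73, adjusted p = 0.00024), and at MN1 2 of 11 were. MYCN had 0 of 13 regions lower, and its start region, chr2:16079829-16081468, held a mean of 55.5 CPM in DMSO with a log2 change of 0.00. One MYCN region was called higher, chr2:16031333-16031578 (log2 change 0.41, adjusted p = 0.037), and lost the call under 5 alternatives. RUNX2 and HMGA2 also held 1 higher region each, with log2 changes of 0.35 and 0.36, neither of which was called by DESeq2 (adjusted p = 0.27 and 0.072).

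Enzyme genes held called and uncalled regions side by side. In PIPOX, an oxidase of pipecolic acid and sarcosine, chr17:27377968-27378827 went from 48.1 and 49.2 to 14.9 and 14.1 CPM (log2 change -1.75, SE 0.08, adjusted p = 2.5e-17), while the region over the gene's start, chr17:27369427-27370155, had a log2 change of -0.06 (adjusted p = 0.66). In ASS1, the argininosuccinate synthase gene of the urea cycle, 5 neighbouring regions inside the gene were lower. The deepest, chr9:133346738-133347634, went from 34.4 and 34.5 to 13.1 and 12.5 CPM (log2 change -1.43, SE 0.09, adjusted p = 1.3e-14), and chr9:133354535-133355458 from 46.0 and 42.9 to 19.8 and 19.5 CPM (log2 change -1.17). The 6 ASS1 regions to their left in the gene were not called, among them chr9:133326896-133327635 with 47.6 and 47.4 CPM in DMSO and 43.4 and 45.6 CPM at 4 h. PDE9A, a cyclic GMP phosphodiesterase gene, had 4 of 7 regions lower, and ABAT, the transaminase of GABA, had 2 of 10 (lowest p at a log2 change of -0.44, adjusted p = 3.9e-05). NAV2, a gene of neuronal navigation, had 4 of 61 lower, led by chr11:19373751-19374852, from 84.3 and 74.2 to 44.5 and 42.4 CPM (log2 change -0.86, adjusted p = 3.8e-13).

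**Figure D3:**
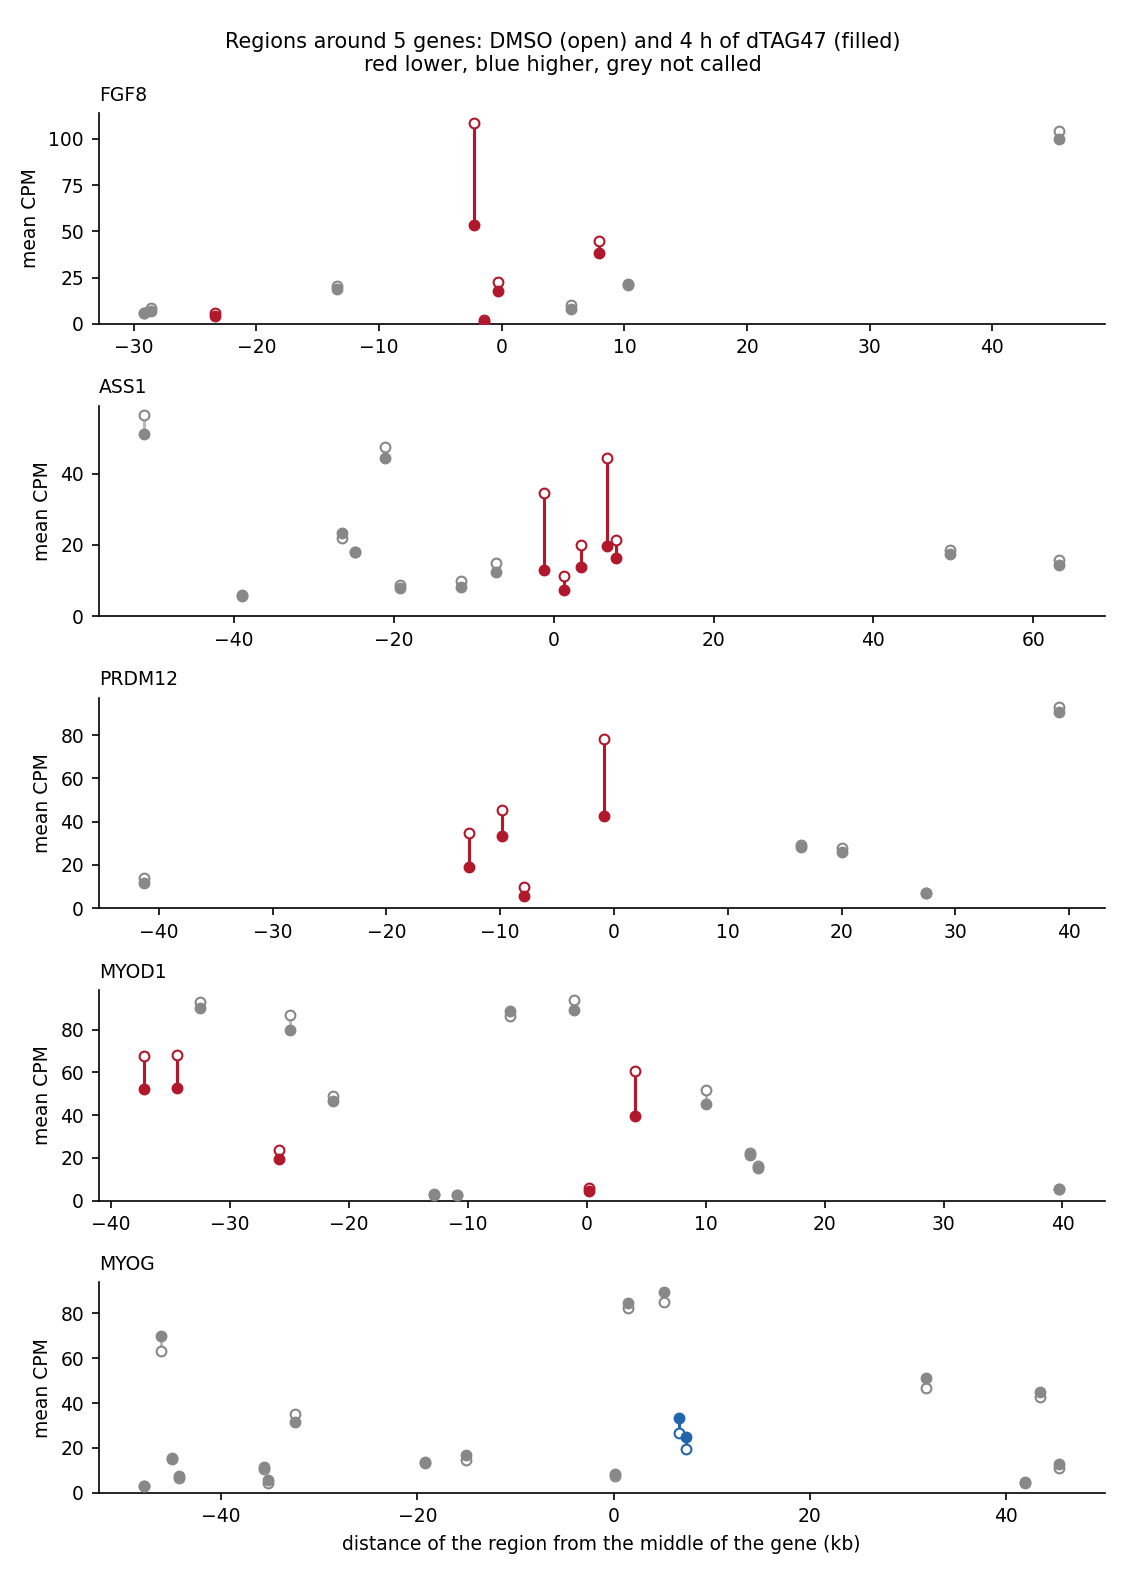
Mean CPM in DMSO (open circles) and at 4 h (filled circles) of every region within 50 kb of FGF8, ASS1, PRDM12, MYOD1 and MYOG, placed by the distance in kb from the middle of the gene; red marks lower, blue higher and grey uncalled regions. At ASS1 the 5 red regions stand side by side, and at FGF8 the tallest pair of circles near the gene drops from 108 and 109 CPM in the DMSO libraries to 53.3 and 53.2 CPM while the tall region at the right edge does not.

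The genes that make up the fusion, PAX3 and FOXO1, had 1 lower region among 14, chr13:41152260-41152600 at FOXO1 (log2 change -0.48, adjusted p = 0.004), which DESeq2 did not call (0.076). The start region of PAX3, chr2:223162979-223164203, had a log2 change of -0.08 (adjusted p = 0.47).

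Myogenic regulators, the factors that specify and mature muscle, had 7 of 77 regions lower (9.09%, exact 95% interval 3.73% to 17.8%) and 2 higher (2.6%), with a median log2 change of 0.03. The interval holds the 5.44% found lower among all regions. MYOD1, the factor that commits cells to muscle, accounted for 5 of the lower regions. Beside the gene, chr11:17745554-17747338 went from 64.0 and 57.2 to 39.0 and 40.2 CPM (log2 change -0.61, SE 0.06, adjusted p = 2.3e-09). On the other side of the gene, chr11:17704758-17705642 went from 71.8 and 63.2 to 53.1 and 51.2 CPM (log2 change -0.37, adjusted p = 2.4e-05). The region over the start of MYOD1, chr11:17740432-17742160, held 91.6 and 96.3 CPM in DMSO and 85.7 and 92.4 CPM at 4 h (log2 change -0.08, adjusted p = 0.46). Close to it inside the gene, chr11:17742460-17742635 went from 5.6 and 6.14 to 4.55 and 4.0 CPM and was called lower (log2 change -0.47, SE 0.15, adjusted p = 0.04). At MYOG, which drives differentiation, 0 of 18 regions were lower and 2 neighbours were higher. The first, chr1:203059968-203060758, went from 25 and 27.9 to 34.4 and 32.5 CPM (log2 change 0.33, SE 0.07, adjusted p = 0.0015), and the other, chr1:203060911-203061357, from 18.8 and 19.9 to 25.7 and 23.8 CPM (log2 change 0.35, adjusted p = 0.002). The first lost its call without the 4 h library A (adjusted p = 0.056). SOX8 had 2 lower regions, the one with the lowest p at a log2 change of -0.25 (adjusted p = 0.0057, and 0.058 in DESeq2). MYF5, MYF6, MEF2A, MEF2C and MEF2D had no called region.

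Genes of the muscle's contractile apparatus and of its synapse held calls in both directions. Of 117 regions, 9 were higher (7.69%, exact 95% interval 3.58% to 14.1%) and 5 lower (4.27%), beside 1.75% and 5.44% of all regions, and the median log2 change was 0.04. This list too was chosen with earlier results of these data known. Of the 9 higher regions, 3 stood at TNNI1 and 2 at ACTC1, while the interval treats regions as independent. The shares are therefore a description and no test. Of the 6 regions that were higher and had the lowest p at a gene, 4 lost the call under at least 1 alternative. At ACTC1, the cardiac actin gene that is also active in developing muscle, chr15:35081451-35081794 went from 4.03 and 4.62 to 7.5 and 6.27 CPM (log2 change 0.65, SE 0.14, adjusted p = 0.0016), a call lost without the 4 h library A (adjusted p = 0.078). At TNNI1, slow muscle troponin I, 3 of 20 regions were higher and 1 was lower, the rises led by chr1:201365005-201365473, from 20.2 and 21.6 to 28.2 and 28.5 CPM (log2 change 0.43, SE 0.07, adjusted p = 5.6e-05). At TNNC2, fast muscle troponin C, chr20:44455096-44455637 went from 14.8 and 13.9 to 18.7 and 19.1 CPM (log2 change 0.40, adjusted p = 0.0011). The TNNI1 and TNNC2 calls held under all alternatives. Those at the myosin light chain genes MYL1 and MYL4 (log2 changes 0.29 and 0.27) and at the neighbouring receptor genes CHRND and CHRNG (0.44, 1 shared region) were lost with DESeq2 (adjusted p = 0.30, 0.11 and 0.15).

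The 5 falls around muscle structure genes ranged widely in depth. Near MYH8, the perinatal myosin heavy chain gene, chr17:10257778-10258691 went from 26.8 and 25.2 to 8.98 and 8.75 CPM (log2 change -1.55, SE 0.09, adjusted p = 8.9e-15). Near TNNT2, cardiac troponin T, chr1:201279776-201280875 went from 87.8 and 87.2 to 50.2 and 54.1 CPM (log2 change -0.75, SE 0.05, adjusted p = 6.4e-13). In TTN, the giant spring protein of the sarcomere, chr2:179632518-179632797 went from 5.66 and 4.62 to 2.13 and 2.72 CPM (log2 change -1.05, adjusted p = 3.2e-05). The fall beside TNNI1 was shallow: chr1:201417282-201417924 went from 32.5 and 30.7 to 26.4 and 25.8 CPM (log2 change -0.27, SE 0.07, adjusted p = 0.0079). A window of 50 kb can hold other genes, and which gene a region acts on was not tested.

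**Figure D4:**
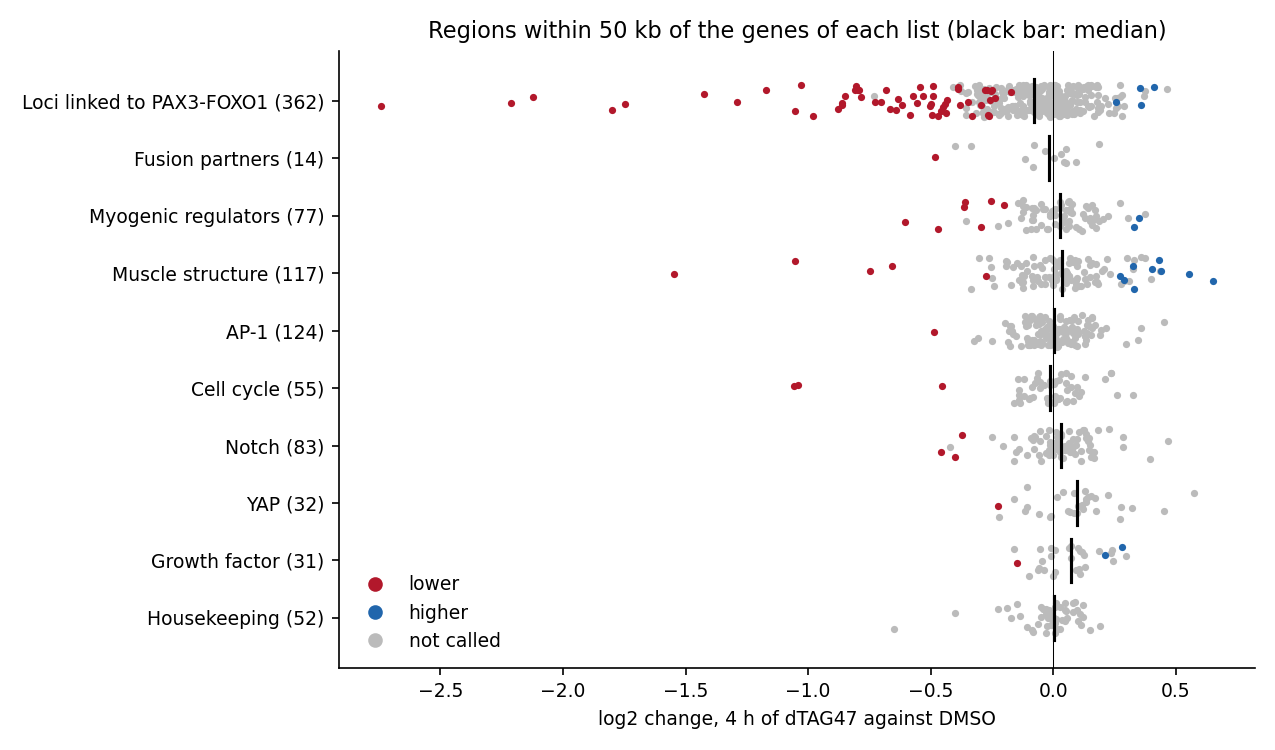
Log2 change at 4 h (horizontal axis) of each region within 50 kb of the genes of 10 lists, with the number of regions in brackets, coloured by call; the black bar is the list's median and vertical scatter has no meaning. The genes linked to PAX3-FOXO1 have 58 red points reaching -2.74, and muscle structure has 9 blue points reaching 0.65.

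The other lists are given beside the 5.44% lower and 1.75% higher of all regions, which lie within the exact 95% intervals of the cell cycle, Notch, YAP and growth factor lists. AP-1 genes, which respond early to stress and growth signals, had 1 lower region among 124 (0.806%) and 0 higher, and the start regions of JUN, JUNB, JUND, FOS and FOSL2 had log2 changes from -0.17 to 0.05 with adjusted p-values from 0.21 to 0.96. The single call was at ATF3, chr1:212705227-212705474, from 16.7 and 14.4 to 11.4 and 10.7 CPM (log2 change -0.48, adjusted p = 0.00055). Cell cycle genes had 3 of 55 regions lower (5.45%). At CDKN2A, which encodes p16 and ARF, chr9:22041857-22042145 went from 7.9 and 8.02 to 3.82 and 3.84 CPM (log2 change -1.06, SE 0.13, adjusted p = 3.1e-07). At CCND3, cyclin D3, the change was at chr6:42014890-42015096, from 7.56 and 7.08 to 3.9 and 3.2 CPM (log2 change -1.04, SE 0.15, adjusted p = 2.9e-06). The other, at the p21 gene CDKN1A, had a log2 change of -0.45 (adjusted p = 0.0018, and 0.066 without the 4 h library A). These 3 losses were single regions in loci where the others were not called.

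Notch pathway genes had 3 of 83 regions lower (3.61%) and 0 higher, 2 of them at the receptor NOTCH1, where chr9:139343768-139344251 went from 35.7 and 36.1 to 27.0 and 27.3 CPM (log2 change -0.40, SE 0.07, adjusted p = 3.3e-05). The other was at the ligand gene JAG1 (log2 change -0.46, adjusted p = 0.015, and 0.24 in DESeq2). The YAP list had 1 of 32 lower and 0 higher, at the target gene CCN1, and DESeq2 did not call it (adjusted p = 0.3). Around IGF2, a fetal growth factor, and the imprinted RNA gene H19, 1 of 31 regions was lower and 2 higher, the latter led by chr11:2009162-2010222, from 37.9 and 37.3 to 45.2 and 46.1 CPM (log2 change 0.28, adjusted p = 0.0015). Around 6 housekeeping genes 0 of 52 regions were called (exact 95% interval up to 6.85% in each direction), and the start regions of GAPDH, EEF1A1, PPIA, RPLP0 and TBP had log2 changes from -0.09 to 0.05. Markers of other cell types had these calls: 1 of 15 regions lower and 1 higher for blood, 2 of 14 lower for epithelium, 1 of 3 lower for the liver gene ALB, 1 of 13 higher for the fibroblast gene COL1A1, and 0 of 5 and 0 of 6 for SOX10 and PECAM1.

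Lower regions, which were more numerous, were more often close to one another than higher ones. Another lower region began within 10 kb of 20.2% of the lower regions, and another higher region within 10 kb of 8.04% of the higher ones. The sets differ in size, 3099 against 995, and a larger set has closer neighbours for that reason alone. Any tested region began within 10 kb of 63.2% of all regions. These shares are descriptions and do not show that losses cluster more than gains. In stretches of 1 Mb, the most lower regions were on chromosome 9 from 89 to 90 Mb, 14 of 55 (25.5%), around GAS1, a hedgehog co-receptor gene. Chromosome 9 from 133 to 134 Mb, with ASS1 and PRDM12, held 13 of 65, and chromosome 16 from 89 to 90 Mb, with SPG7, held 13 of 89. On chromosome 19 from 31 to 32 Mb, with the zinc finger gene TSHZ3, 12 of 44 regions were lower (27.3%). Of 2760 stretches with a tested region, 11 held at least 10 lower regions and 1420 held at least 1. By chromosome, leaving out the Y chromosome with 6 regions, the share of lower regions ran from 3.31% on chromosome 19 to 6.84% on chromosome 21, and that of higher regions from 0.892% on chromosome 19 to 2.59% on chromosome 20. The most higher regions in 1 Mb were 8 of 110, on chromosome 14 from 105 to 106 Mb.

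A direct test of 4 h against 2 h in experiment 6086 called few regions. They were 44 regions lower (0.0773% of those tested) and 2 higher (0.00351%), together 0.0808%. DESeq2 called 12 and 0, and a fit of only the 2 h and 4 h libraries called 193 and 41. Leaving out any 1 of the 4 libraries compared left 1 to 4 lower and 0 higher: the lower regions numbered 4 without the 2 h library A and 1 without the 2 h library B or either 4 h library. Of the regions described above, those in KCNIP1 (log2 difference -0.93, adjusted p = 0.032), at CHD6 and PTPRT (chr20:40555841-40556253, -0.78, adjusted p = 0.038) and between CDC5L and SUPT3H (-0.58, adjusted p = 0.018) were lower at 4 h than at 2 h. So were the SPG7 region (-0.37, adjusted p = 0.0079) and the FGF8 region (-0.43, adjusted p = 6e-05). In the FGF8 region the 2 h libraries held 71.7 and 71.4 CPM, between DMSO and 4 h. The regions named here were chosen on their 4 h values, which also enter this test, so the choice favours lower values at 4 h. A region that was not called between 4 h and 2 h is not shown to have been alike at both.

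The test of 24 h against 4 h called many more regions, 7889 lower (13.9%) and 4972 higher (8.73%), with 4025 and 1870 in DESeq2. Without the 4 h library A the counts were 5038 and 3200, and the higher regions numbered 2667 without the 4 h library B and 2828 without the 24 h library B. Of the 10 deepest losses at 4 h, 5 were lower still at 24 h and 0 were higher. The KCNIP1 region stood at 0.954 and 0.824 CPM at 24 h, a log2 difference from 4 h of -1.22 (adjusted p = 0.00026). The region between CDC5L and SUPT3H differed by -1.11 (adjusted p = 5.7e-08). The region between SULF2 and PREX1 went the other way, with a log2 difference of 0.43 (adjusted p = 4.2e-08). Among regions of the gene lists, the loss at PIPOX went further (-0.88, adjusted p = 4.5e-08). The OLIG2 region chr21:34424306-34424583, with 9.97 and 8.17 CPM in DMSO and 3.64 and 3.68 CPM at 4 h, rose by 24 h (0.53, adjusted p = 0.0088). So did the ALK region with the lowest p (0.36, adjusted p = 0.00054). In these libraries loss at 4 h was followed by further loss in some regions and by a partial return in others. The regions were chosen on their 4 h values, which enter this test too, so the choice favours a return.

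Experiment 6211 had its own libraries, DMSO group and regions, so its libraries were not used to call any 4 h change. Of the regions called lower at 4 h, 2107 had a single partner there, as did 555 of those called higher, among 29639 matched regions in all. In 6211 those lower at 4 h had medians, on the log2 scale, of -0.20 after 0.5 h, -0.33 after 1 h and -0.45 after 2 h, beside 0.00, 0.01 and 0.02 over all matched regions. Each treated library showed this: library medians against the mean of the DMSO libraries were -0.21 and -0.18 after 0.5 h, then -0.30 and -0.34 after 1 h, then -0.45 and -0.44 after 2 h, while the DMSO libraries themselves stood at 0.04 and -0.04. The higher regions had medians of 0.07, 0.12 and 0.21, with library medians of 0.20 and 0.23 at 2 h. Below 0 at 0.5 h were 92.2% of the regions lower at 4 h and 49.1% of all matched regions.

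At 2 h the 6211 fit called 4.92% of all its regions lower and 1.97% higher. It called 1496 of the matched regions lower (5.05%) and 569 higher (1.92%). Of the 2107 matched regions lower at 4 h in 6086, 1205 were among the former, which is 57.2% of the 4 h list and 80.5% of the 2 h list. For higher regions the shared number was 83, or 15.0% of the 4 h list and 14.6% of the 2 h list. With this matching no region was called in opposite directions. With 25% reciprocal overlap, 2 regions lower at 4 h were called higher at 2 h in 6211, and with any overlap it was also 2. At 1 h, 671 of the 2107 were called lower (31.8%), beside 2.71% of all matched regions. At 0.5 h only 2 of the 2107 were, in a fit that called 0.00735% of all its regions lower at that time. One of the deep losses was already called at 0.5 h: the region between CDC5L and SUPT3H went from 62.3 and 62.0 CPM in the DMSO libraries of 6211 to 39.4 and 42.4 CPM (log2 change -0.61, SE 0.08, adjusted p = 0.0086). It held 36.2 and 36.4 CPM at 1 h and 18.1 and 17.7 CPM at 2 h. The KCNIP1 region went from 21.1 and 23.1 CPM to 14.1 and 13.9 CPM at 0.5 h (adjusted p = 0.11), 12.7 and 9.83 CPM at 1 h (adjusted p = 0.00016) and 4.99 and 6.29 CPM at 2 h (adjusted p = 3.2e-08). All 7 of the 10 deepest losses with a partner in 6211 were called lower at both 1 h and 2 h there. The ZNF787 region, the single gain by fold with a partner, had a log2 change of 0.49 at 2 h that did not pass the test (adjusted p = 0.15). CPM of the 2 experiments are not comparable with each other, since their regions differ in number and width.

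**Figure D5:**
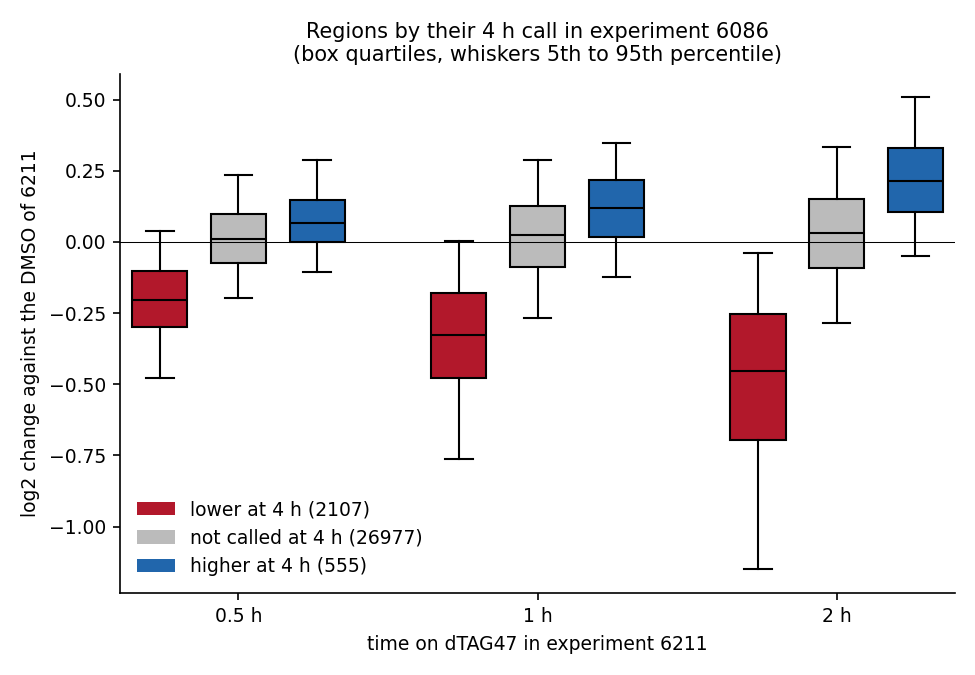
Log2 change against the DMSO libraries of experiment 6211 (vertical axis) at 0.5, 1 and 2 h for matched regions, grouped by their call at 4 h in experiment 6086: lower (red, 2107), not called (grey) and higher (blue, 555); boxes show quartiles with the median and whiskers the 5th to 95th percentile. The red medians go from -0.20 to -0.45 and the blue from 0.07 to 0.21, while the grey boxes stay around 0.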

How the data were processed

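ATAC-seq was analysed from the deposited count table of experiment 6086 (DMSO, 2, 4 and 24 h of 500 nM dTAG47, 2 libraries each), which holds the authors' raw counts of reads per consensus region, and that of 6211. The deposited comparison table gives log2 fold changes and adjusted p-values of the authors' own test, used only to count calls. Tools listed, without roles, in the submitters' processing notes are deepTools, DESeq2, DiffBind, Bowtie2, Trimmomatic 0.32 and Genrich 0.6.1, with the builds hg19 and dm3, and coordinates are taken as hg19. Shifting of reads for the transposase and duplicate handling are not given in the sources used here. Column names gave treatment and time, which set the group. The letters A and B serve as library names, since nothing links them to the labels' numbered replicates, and 0 per-library columns lay outside the groups.

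The test was that of edgeR 4.0.16 under R 4.3.3 (filterByExpr, TMM, quasi-likelihood, group means) in 1 fit of all 8 libraries of the experiment, with 4 residual degrees of freedom, a biological coefficient of variation of 3.48% and prior degrees of freedom of 29.9. TMM takes most regions as unchanged, so a uniform change of accessibility would not be seen. Each standard error is the log2 change divided by the square root of F. On simulated counts (56946 regions, 4 h against DMSO) the share of changed regions recovered was 80% at 1.5-fold, 98% at 2-fold and 100% at 3-fold, and 32% at the smallest size simulated. There were 9 false calls. All simulated regions shared a coefficient of variation of 3.48%, and changes were planted only in regions with a mean count of at least 30. The spread of real libraries may differ between regions, so these rates may not carry over to the real calls. Regions of both experiments were paired (bedtools 2.31.1, 50% reciprocal overlap, single partners), using Python 3.11.15 and pandas 2.3.3.

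Named regions had a mean count of at least 30, an adjusted p under 0.05 and no overlap between 4 h and DMSO libraries on a log scale (a prior of 2 counts). They were the 10 lowest and 10 highest log2 changes, the 6 largest falls and 6 largest rises in CPM, and the region with the lowest p within 50 kb of each listed gene. Other regions of those genes, and the 1 Mb stretches, were picked after their values were seen. No hg19 annotation was used: genes were assigned from 147 hg19 gene positions entered by hand, of which 146 were found in RefSeq on the same chromosome in the same order. Members and lists were chosen with earlier results of these data known. Alternatives were DESeq2 1.42.0, library size alone, median-ratio factors, TMM on the upper 25% of regions, a loess offset (limma 3.58.1), no filter, a mean count of at least 30, the groups compared alone, a replicate block and leaving out each library. Intervals of shares are exact binomial, cover counting error only and treat regions as independent.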

Additional observations from a re-analysis of the deposited data

Results flagged for a closer look

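In each of these regions the effect at 4 h differed from that at 2 h or 24 h by a direct test in the edgeR fit (Benjamini-Hochberg adjusted p under 0.05). The regions were chosen on their 4 h values, which also enter these differences. Against 2 h, the log2 difference was -0.93 in the KCNIP1 region, -0.78 in the second CHD6-PTPRT region (chr20:40555841-40556253), -0.58 between CDC5L and SUPT3H, -0.37 in SPG7 and -0.43 in FGF8. At 24 h against 4 h, losses had gone on in the KCNIP1 region (-1.22), in ARID4B (-0.92), in IRAK3 (-0.96), in that CHD6-PTPRT region (-0.62), between CDC5L and SUPT3H (-1.11), in SPG7 (-0.39), in FGF8 (-0.23) and between KCNS3 and RDH14 (-0.33). The region between SULF2 and PREX1 was higher at 24 h than at 4 h (0.43). Among gains, the regions between ZCCHC24 and EIF5AL1 (0.57), in GPT2 (1.35) and between TRMT61A and BAG5 (0.13) were higher still at 24 h, while the KCNK3 region was lower than at 4 h (-0.45).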

How the results depend on the processing

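The 4 h counts of 3099 lower and 995 higher regions became 1917 and 186 with DESeq2, and higher regions were 626 with the groups compared alone. Leaving out 1 library at a time gave 1936 to 3217 lower and 324 to 1063 higher. For 4 h against 2 h (44 lower, 2 higher), DESeq2 gave 12 and 0, the groups compared alone 193 and 41, and leaving out 1 library 1 to 4 and 0. For 24 h against 4 h, DESeq2 gave 4025 and 1870, and leaving out 1 library 5038 to 5713 lower and 2667 to 3490 higher. With a replicate block on the letters the counts were 2957 and 846 at 4 h, and 20 and 0 against 2 h. Whether the letters pair the samples is not known. Deviations of same-lettered libraries correlated at 0.154 between DMSO and 4 h and at -0.137 between DMSO and 2 h. Of 416 values of the 32 regions named by size, 382 kept their call, 34 lost it, all among gains, and 0 changed direction. Median width was 390 bp in lower and 481.5 bp in higher regions at an adjusted p under 0.01, and 321 and 195.5 bp among changes of at least 1.5-fold, with DMSO medians of 14.8 and 12.2 CPM and of 11.2 and 3.12 CPM. With windows of 10 kb the AP-1, YAP and growth factor lists had 0.0% of regions lower. In 6211, the higher regions' median at 0.5 h was 0.05 to 0.09 when either DMSO library was left out. At these depths a region not called may still have changed. Among uncalled regions, 79 had a measured change of 1.5-fold or more and 3 of 2-fold or more.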
